A study of Homo sapiens with 12 samples.

Results

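SLC43A2, also called LAT4, is a facilitated transporter that carries branched-chain amino acids and phenylalanine across the plasma membrane. In HEK293 cells, a human embryonic kidney line, its transcript was less abundant after transfection of each of 3 PEG10 constructs than in control cells, and it was chosen by those values. The other 9 transcripts described with it were taken as its relatives and partners, with earlier results of these data known. They were SLC43A1 and SLC43A3 of the same family, the light chains SLC7A5, SLC7A6 and SLC7A8 with their heavy chain SLC3A2, and the glutamine and neutral amino acid transporters SLC1A5, SLC38A1 and SLC38A2. These 10 genes were 10 of the 26485 genes in the count table, and all 10 were among the 17176 genes with enough counts to be tested.

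PEG10 is a domesticated retrotransposon that makes a gag protein and, by ribosomal frameshifting, a longer gag-pol protein, from which a nucleocapsid fragment is released. The mRNA libraries came from 3 independent passages of wild-type HEK293 cells, each given 1 of 4 plasmids. These were HA-tagged LifeAct-Dendra2, an actin-binding peptide fused to a fluorescent protein (control, n = 3), full-length PEG10 (gag-pol, n = 3), the first reading frame, RF1 (gag, n = 3), and the nucleocapsid (NC, n = 3). The control plasmid is given as in the sample labels, while the study's methods name pCDNA as the negative control of a pathway analysis, and every difference from control below is against the labelled plasmid. The groups shared the cell line and the transfection, no untransfected cells were compared, and each construct was expressed from a plasmid in 1 cell line. The same 3 control libraries entered every comparison with control, so these comparisons were not independent of each other.

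Library totals were between 30625725 and 45316749 counts. PEG10 itself took between 0.0230% and 0.0346% of the counts in the control libraries. In the gag-pol libraries its share ran from 2.80% to 7.35%, in the gag libraries from 3.78% to 6.10% and in the NC libraries from 0.238% to 0.389%, and no library went against its label. All 10 genes listed as features of HEK293 cells, such as VIM, PAX2 and KRT8, were among the genes tested. Of the defining leukocyte markers, PTPRC and CD3E had at most 6 and 7 counts in any library, while CD14 had between 32 and 499. COL1A1, a fibroblast collagen, had between 644 and 1498 counts and DCN at most 4. What part the CD14 and COL1A1 signals had in the results was not tested.

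Amino acid transporters set how much leucine, phenylalanine and glutamine a cell holds. SLC43A1 (LAT3) and SLC43A2 (LAT4) let branched-chain amino acids and phenylalanine pass down their gradient without sodium, whereas SLC43A3 carries purine nucleobases. SLC7A5 (LAT1) and SLC7A8 (LAT2) exchange one large neutral amino acid for another, and SLC7A6 (y+LAT2) exchanges cationic for neutral amino acids. All 3 of these light chains reach the membrane bound to SLC3A2 (4F2hc, the heavy chain of CD98). SLC1A5 (ASCT2) exchanges neutral amino acids with sodium, SLC38A1 (SNAT1) and SLC38A2 (SNAT2) import them with sodium, and SLC38A2 is induced when amino acids run short.

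Sequence before a RefSeq start is shown for the 3 genes on which the results turned most, because the changes below are in transcript abundance. The letters are from RefSeq windows of the GRCh38.p14 assembly. For each gene the window is the first along its strand that held a match to a motif named below. Each is written 5′ to 3′ on the gene's strand and ended before the next annotated exon base in GENCODE 44. Capitals mark matches to any of 3 motifs searched on both strands. These were CCAAT, the core bound by NF-Y, CACGTG, an E-box, and TGATGNAA, the core of the element bound by ATF4 with C/EBP factors.
SLC43A2, chr17:1628887-1629084, minus strand: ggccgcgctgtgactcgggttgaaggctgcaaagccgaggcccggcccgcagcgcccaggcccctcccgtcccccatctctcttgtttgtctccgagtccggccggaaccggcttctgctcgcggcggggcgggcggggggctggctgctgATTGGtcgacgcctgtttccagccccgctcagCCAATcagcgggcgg
SLC7A5, chr16:87869508-87869757, minus strand: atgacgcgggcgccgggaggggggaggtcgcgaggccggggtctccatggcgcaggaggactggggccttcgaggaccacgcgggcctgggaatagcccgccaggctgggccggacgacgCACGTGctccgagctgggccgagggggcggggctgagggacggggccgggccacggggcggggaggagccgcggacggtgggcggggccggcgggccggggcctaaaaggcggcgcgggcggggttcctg
SLC3A2, chr11:62880646-62880862, plus strand: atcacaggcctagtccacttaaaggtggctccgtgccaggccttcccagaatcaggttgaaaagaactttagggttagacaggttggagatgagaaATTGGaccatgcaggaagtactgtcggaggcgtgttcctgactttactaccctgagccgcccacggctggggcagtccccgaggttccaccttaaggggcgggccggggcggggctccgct

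The SLC43A2 window holds CCAAT in both orientations, 99 and 67 bases before the RefSeq start, and no match to the other motifs. Of the 3 windows of this gene, 1 other also holds CCAAT. The SLC7A5 window holds a single CACGTG, 130 bases before its start. SLC3A2 has 3 windows. The one shown lies inside the gene, whose annotation begins at 62856004, and holds the reverse complement of CCAAT 154 bases before its RefSeq start. The window at the annotated beginning, from 62855859, holds none of the 3 motifs and is not shown. The remaining window holds TGATGNAA 37 bases after its start. Over windows of 300 bases (250 before and 50 after a start), CCAAT was found in 34.6% of all 35116 windows and in 6 of the 20 windows of these genes, CACGTG in 7.26% of all and in 4 of the 20, and TGATGNAA in 3.62% of all and in 3 of the 20. Windows were found for 9 of the 10 genes, SLC43A3 being the exception. A match is a run of letters and was not shown to be a bound site.

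In control cells the transporters covered a wide range of levels. On the RPKM scale (counts per kilobase of exon, scaled to library size), SLC1A5 was highest at 170 ± 22.8 (SD, n = 3). SLC3A2 at 65.1 ± 14.7, SLC38A2 at 64.3 ± 21.9, SLC7A5 at 53.0 ± 15.5 and SLC38A1 at 37.7 ± 4.52 came next, and each of these 4 overlapped its neighbour in the order, so their order was not resolved. SLC7A6 at 14.0 ± 2.76 and SLC43A1 at 9.31 ± 1.93 were lower and did not overlap their neighbours. SLC7A8 at 4.01 ± 0.788 and SLC43A2 at 2.65 ± 0.684 overlapped each other, and SLC43A3 at 1.47 ± 0.442 was lowest. SLC43A2 therefore stood at a level of the order of SLC7A8, well under its relative SLC43A1. These levels depend on the exon length used: with the longest transcript in place of all exons, SLC3A2 reached 146 ± 33.0, and the pairs SLC1A5 and SLC3A2, SLC7A6 and SLC43A1, and SLC43A2 and SLC43A3 overlapped as well.

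**Figure D1:**
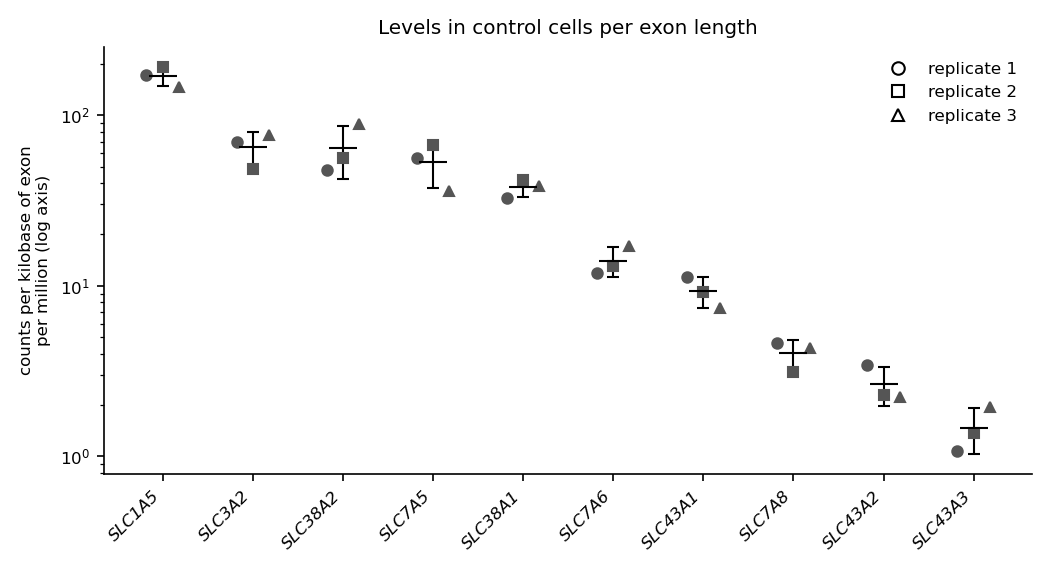
Levels of the 10 transcripts in the 3 control libraries, in RPKM (counts per kilobase of exon, scaled to library size) on a log axis. Points are libraries with the replicate number as the marker, and horizontal lines with bars are the mean and SD. SLC1A5 stands above the rest at 170, and SLC43A2 at 2.65 is next to last, above SLC43A3 at 1.47.

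SLC43A2 lies on chromosome 17 from 1569268 to 1628886 on the minus strand (GRCh38, GENCODE 44). Its normalized counts, which are counts scaled to a common library size, were 1371, 907 and 891 in control replicates 1, 2 and 3. With gag-pol they were 619, 504 and 417, with gag 521, 415 and 329, and with NC 464, 426 and 424. Every PEG10 library was below every control library, and replicate 1 was highest under each of the 4 plasmids. The mean was 1056 ± 273 in control cells (SD, n = 3), 514 ± 102 for gag-pol, 422 ± 96.1 for gag and 438 ± 22.2 for NC. The fitted log2 difference from control was -1.03 for gag-pol (95% interval -1.29 to -0.78), -1.32 for gag (-1.58 to -1.06) and -1.24 for NC (-1.50 to -0.98). Each is a description without a test, because these differences chose the gene. Groups that do not overlap were found for 13.5% of all genes tested with gag-pol against control, 7.11% with gag and 9.5% with NC. In RNA from whole cultures, fewer cells with the transcript and less transcript per cell cannot be told apart. Without untransfected cells, a rise with the control plasmid and a fall with the PEG10 constructs cannot be told apart either.

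Among the constructs themselves, no difference in SLC43A2 passed. The choice used the values of all 3 constructs and favours a gene that is low with each. These comparisons are therefore not free of the choice. The log2 difference was 0.29 ± 0.126 (SE) between gag-pol and gag (3 of 3 replicates higher with gag-pol, 95% interval 0.03 to 0.55, unadjusted p = 0.0314, adjusted p = 0.16), 0.08 ± 0.127 between NC and gag (-0.18 to 0.34, adjusted p = 0.73) and -0.21 ± 0.126 between NC and gag-pol (-0.47 to 0.05, adjusted p = 0.6). All adjusted p-values here are from the quasi-likelihood test of edgeR, adjusted by the Benjamini-Hochberg method over all genes tested. PEG10 took at least 2.80% of counts in each gag-pol and gag library and at most 0.389% with NC. These shares do not measure dose, because the NC insert is a short part of gag and yields fewer reads per transcript. The SLC43A2 ranges of the 3 groups overlapped.

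**Figure D2:**
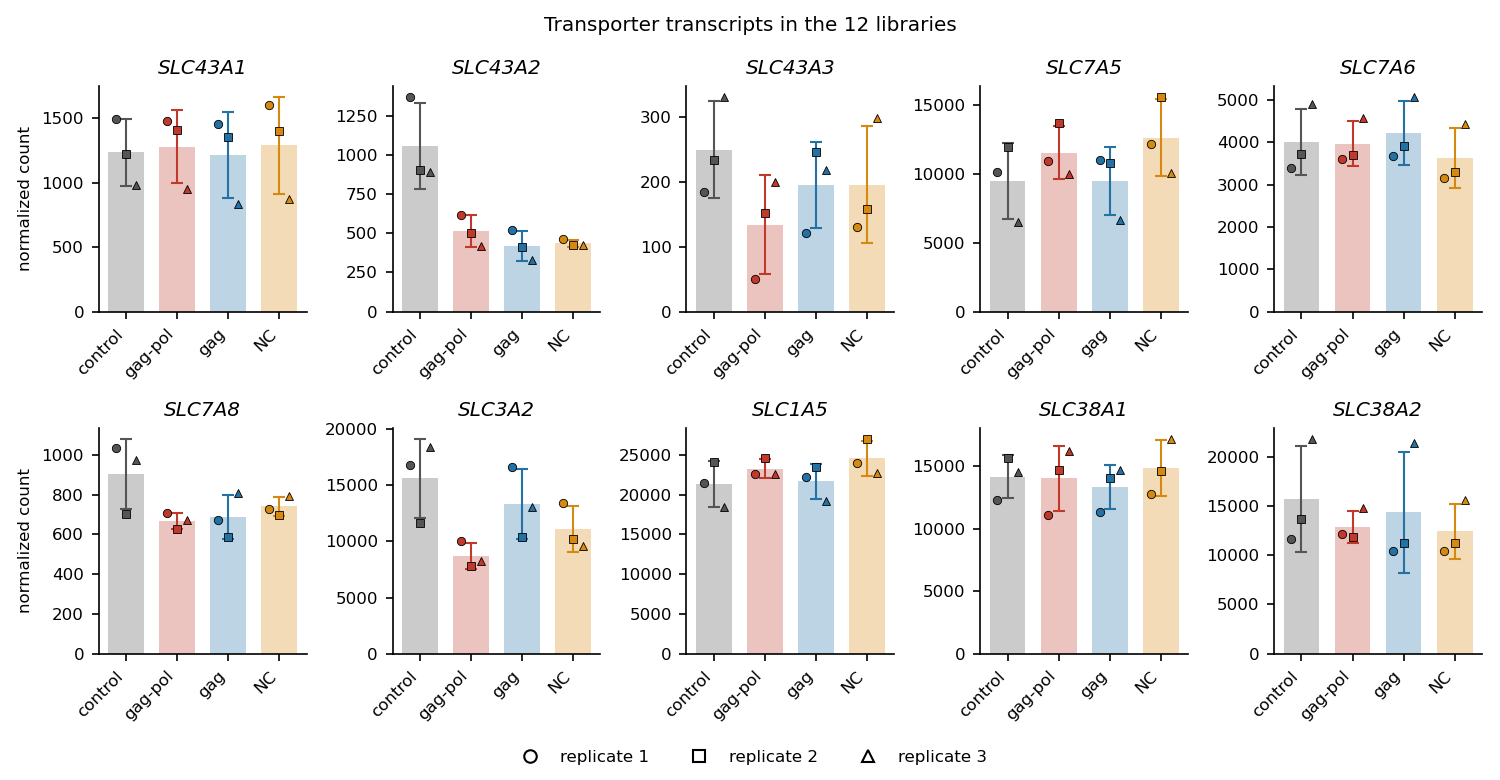
Normalized counts of the 10 transcripts in the 12 libraries, each panel with its own axis from 0. Bars are means, error bars are SD over 3 libraries, and markers show the replicate number. SLC43A2 is lower in every PEG10 library (329 to 619) than in any control library (891 to 1371), and SLC3A2 is lower in every gag-pol library than in any control library.

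The closest relative by substrate, SLC43A1, differed from control with no construct. Its normalized counts averaged 1233 ± 256 in control cells, 1279 ± 285 for gag-pol, 1214 ± 336 for gag and 1290 ± 375 for NC. The log2 difference from control was 0.05 for gag-pol (95% interval -0.15 to 0.24), -0.04 for gag (-0.24 to 0.15) and 0.04 for NC (-0.15 to 0.24). These intervals do not exclude changes of up to 0.24 on the log2 scale, and a change of the size seen for SLC43A2 lies outside them. The ratio of SLC43A2 to SLC43A1 per kilobase was 0.284 ± 0.0331 in control cells, 0.135 ± 0.0139 for gag-pol, 0.118 ± 0.0152 for gag and 0.120 ± 0.0365 for NC. SLC43A1 followed the replicate number instead, at 1454 to 1598 in the 4 libraries of replicate 1, 1225 to 1409 in replicate 2 and 830 to 982 in replicate 3.

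SLC43A3, the purine nucleobase transporter of the family, was the least abundant of the 10. Its normalized counts were 184, 233 and 331 in the control replicates and 50.4, 152 and 199 with gag-pol. With gag they were 121, 246 and 218, and with NC 130, 158 and 299. Within each replicate number gag-pol was below control, although the groups overlapped. The transcript fell by 1.00 ± 0.230 on the log2 scale with gag-pol (3 of 3 replicates, adjusted p = 0.0077, edgeR). The differences with gag (-0.36, adjusted p = 0.52) and NC (-0.39, adjusted p = 0.27) did not pass, and gag-pol was not shown to differ from gag (-0.63, adjusted p = 0.1) or NC from gag-pol (0.60, adjusted p = 0.36). The gag-pol value rested in part on replicate 1: without gag-pol replicate 1 it was -0.73 (adjusted p = 0.066), and without replicate 1 in all groups -0.66 (adjusted p = 0.16).

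SLC3A2, the shared heavy chain, had a larger fitted difference from control than any light chain with gag-pol and with NC. Its normalized counts were 16838, 11666 and 18393 in control cells and 10019, 7835 and 8266 with gag-pol. With gag they were 16630, 10381 and 13046, and with NC 13436, 10248 and 9599. Every gag-pol library was below every control library and every gag library, while the NC and gag groups each overlapped control. With gag-pol the transcript fell by 0.84 ± 0.110 on the log2 scale against control (3 of 3 replicates, adjusted p = 0.00033, edgeR), and with NC by 0.49 ± 0.110 (3 of 3, adjusted p = 0.011). With gag the difference was -0.24 ± 0.109 (3 of 3 lower, adjusted p = 0.35). Gag-pol was lower than gag by direct test (-0.60 ± 0.110, adjusted p = 0.0065), in a comparison where the groups of 12.7% of all genes did not overlap. That call was lost without gag-pol replicate 3 (-0.55, adjusted p = 0.074), gag replicate 1 (-0.53, adjusted p = 0.057) or replicate 1 in all groups (-0.51, adjusted p = 0.13). NC against gag (-0.25, adjusted p = 0.13) and NC against gag-pol (0.35, adjusted p = 0.28) did not pass. The NC call was lost without control replicate 3 (-0.31, adjusted p = 0.06), without NC replicate 3 (-0.36, adjusted p = 0.057) and with only NC and control libraries in the fit (-0.49, adjusted p = 0.065). It was also lost without replicate 3 in all groups (-0.25, adjusted p = 0.062). The start of SLC3A2 is 0.051 kb from SNHG1 on the opposite strand, whose log2 difference was -0.14 with gag-pol (adjusted p = 0.32) and -0.15 with NC (adjusted p = 0.29).

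SLC7A5, the main light chain here, went the other way. Its normalized counts were 10088, 11909 and 6471 in control cells and 10925, 13661 and 9965 with gag-pol. With gag they were 10992, 10749 and 6610, and with NC 12163, 15574 and 10045. The groups overlapped, but within each replicate number both gag-pol and NC were above control. SLC7A5 rose by 0.31 ± 0.0948 on the log2 scale with gag-pol (adjusted p = 0.036, edgeR) and by 0.43 ± 0.0948 with NC (adjusted p = 0.0079), each in 3 of 3 replicates. With gag the difference was 0.00 ± 0.0947 (95% interval -0.19 to 0.20). NC was higher than gag by 0.42 ± 0.0948 (3 of 3, adjusted p = 0.0051), a call lost without replicate 2 in all groups (0.37, adjusted p = 0.059). Gag-pol against gag just missed the threshold (0.31, adjusted p = 0.053). Both calls against control depended on control replicate 3, the lowest SLC7A5 library: without it the difference was 0.22 with gag-pol (adjusted p = 0.22) and 0.34 with NC (adjusted p = 0.076). The gag-pol call was also lost without gag-pol replicate 2 (0.34, adjusted p = 0.057) or 3 (0.20, adjusted p = 0.25) and with only gag-pol and control libraries in the fit (0.30, adjusted p = 0.087). It was lost as well without replicate 1 (0.42, adjusted p = 0.063), 2 (0.37, adjusted p = 0.053) or 3 (0.15, adjusted p = 0.33) in all groups. The NC call was lost without NC replicate 3 (0.39, adjusted p = 0.051).

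SLC7A8, a light chain found mainly in polarized epithelia, was lower with gag-pol. Its normalized counts were 1036, 702 and 973 in control cells, 708, 625 and 672 with gag-pol, 672, 585 and 808 with gag, and 730, 699 and 792 with NC. In all 3 replicate numbers each PEG10 construct was below its control, and the groups overlapped through control replicate 2. The transcript fell by 0.42 ± 0.115 on the log2 scale with gag-pol (adjusted p = 0.02, edgeR). The values with gag (-0.39, adjusted p = 0.11) and NC (-0.27, adjusted p = 0.13) did not pass, and no difference between constructs passed. The gag-pol call was lost without control replicate 1 (-0.30, adjusted p = 0.16), control replicate 3 (-0.42, adjusted p = 0.066), gag-pol replicate 1 (-0.43, adjusted p = 0.07) or gag-pol replicate 3 (-0.35, adjusted p = 0.12). It was also lost without replicate 1 (-0.34, adjusted p = 0.23) or replicate 3 (-0.37, adjusted p = 0.11) in all groups.

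SLC7A6, the cationic and neutral amino acid exchanger, differed from control with no construct. The log2 difference was -0.01 for gag-pol, 0.08 for gag and -0.14 for NC (adjusted p = 0.97, 0.69 and 0.2, edgeR). Normalized counts with gag were 3680, 3905 and 5073 and with NC 3145, 3302 and 4431, so NC was lower than gag in 3 of 3 replicates. That difference of -0.22 ± 0.0716 passed (adjusted p = 0.036), but its adjusted p was between 0.022 and 0.3 when each library or replicate number was omitted in turn, and 5 of these 15 fits passed. SLC7A6 overlaps SLC7A6OS on the opposite strand, and whether counting used strand was not given in the sources used here. SLC7A6OS passed in no comparison with control.

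The balance of heavy and light chain transcripts was read on the RPKM scale. SLC3A2 over the sum of SLC7A5, SLC7A6 and SLC7A8 was 0.962, 0.587 and 1.33 in control replicates 1, 2 and 3. It was 0.543, 0.354 and 0.461 with gag-pol, 0.896, 0.566 and 0.932 with gag, and 0.680, 0.420 and 0.532 with NC. The gag-pol libraries were all below the control libraries and the gag libraries, whereas NC overlapped both. SLC7A5 made up most of the light chain sum, between 62.7% and 85.6% in the 12 libraries. The ratio restates the changes of its parts and was not tested.

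None of the sodium-coupled transporters passed against control in edgeR. SLC1A5, the most abundant of the 10, was at 21331 ± 2857 normalized counts in control cells, 23283 ± 1158 for gag-pol, 21653 ± 2192 for gag and 24588 ± 2209 for NC. Its log2 difference from control was 0.13 with gag-pol (adjusted p = 0.26) and 0.21 with NC (adjusted p = 0.075), each higher in 3 of 3 replicates, and 0.02 with gag (edgeR). SLC38A1 was within 0.09 of control on the log2 scale with each construct, with 95% intervals of -0.19 to 0.13 for gag-pol, -0.25 to 0.07 for gag and -0.10 to 0.22 for NC. SLC38A2, the importer induced by amino acid shortage, was at 15726 ± 5366 in control cells and 12417 ± 2803 with NC, a log2 difference of -0.31 ± 0.108 (3 of 3 lower, adjusted p = 0.071). That value passed in DESeq2 (-0.32, adjusted p = 0.031), without a filter on low counts (-0.31, adjusted p = 0.029) and with only NC and control libraries in the fit (-0.32, adjusted p = 0.0075), as did SLC1A5 with NC in DESeq2 (0.21, adjusted p = 0.024). With gag-pol SLC38A2 was at -0.23 (adjusted p = 0.17) and with gag -0.15 (adjusted p = 0.59).

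**Figure D3:**
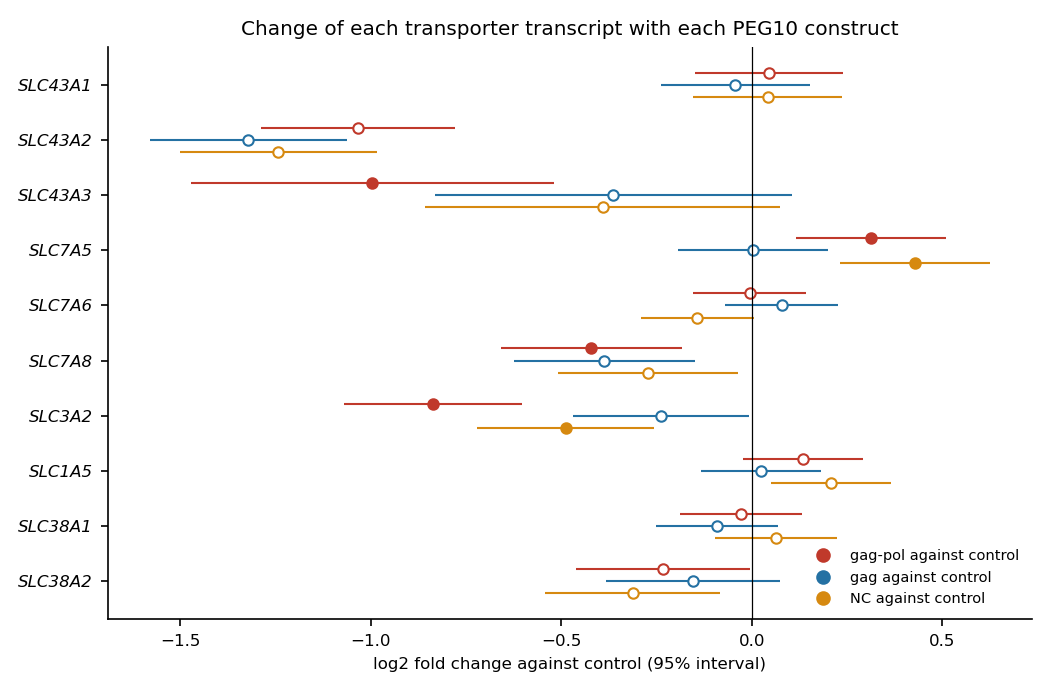
Log2 fold change of each transcript against control for gag-pol, gag and NC, with 95% intervals. Filled points passed an adjusted p of 0.05, and SLC43A2 is drawn open because it was not tested. SLC43A2 is near -1 or lower with all 3 constructs, while SLC3A2 ranges from -0.84 with gag-pol to -0.24 with gag.

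Counted over the 9 tested relatives, 4 passed with gag-pol (1 higher and 3 lower), where 11.3% of all genes tested passed, 5.48% higher and 5.83% lower. None of the 9 passed with gag, where 1.08% of all genes did, with 2 of the 9 at an unadjusted p under 0.05 and none in DESeq2. With NC, 2 of 9 passed (1 higher and 1 lower), where 11.2% of all genes passed, 6.04% higher and 5.15% lower. With counts this small no share was set apart from the background. The 9 were also chosen with earlier results of these data known, so the counts are a description. The median log2 difference of the 9 was -0.03 for gag-pol, -0.09 for gag and -0.14 for NC, beside medians of 0.00 over all genes in each. Averaged over the constructs, 3 of 9 were lower than control (7.76% of all genes passed in either direction): SLC3A2 at -0.52 (adjusted p = 0.0025), SLC7A8 at -0.36 (adjusted p = 0.019) and SLC43A3 at -0.58 (adjusted p = 0.048), the last in only 4 of the 15 fits with a library or replicate number omitted. Between constructs, 1 of 10 passed for gag-pol against gag (6.46% of all genes), 2 of 10 for NC against gag (16.9%) and none for NC against gag-pol (0.0873%), the last with 2 of 10 at an unadjusted p under 0.05 in edgeR and none in DESeq2.

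A further comparison set the constructs with many called genes, gag-pol and NC, against those without. This grouping was taken from the numbers of genes called in the same libraries, which favours large differences in its own test. The adjusted p-values, the share of all genes passing and the fits with libraries omitted all carry that choice. They are given as a description. With gag-pol and NC averaged against gag and control, 4 of 9 relatives passed, where 24.7% of all genes did. SLC7A5 was higher by 0.37 ± 0.0671 on the log2 scale (adjusted p = 0.00064) and SLC1A5 by 0.16 ± 0.0537 (adjusted p = 0.033), each in 3 of 3 replicates. SLC3A2 was lower, at -0.54 ± 0.0776 (adjusted p = 0.00019) and SLC43A3 at -0.51 ± 0.162 (adjusted p = 0.024), also in 3 of 3. The SLC7A5 and SLC3A2 calls held in each of the 15 fits with a library or replicate number omitted, the SLC43A3 call in 8 of them and the SLC1A5 call in 5.

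These calls rest on comparing constructs within replicate numbers. The replicate number was a term of the model. Without it no member counted passed in any comparison between plasmids, with between 0 and 2 at an unadjusted p under 0.05 in edgeR. The count covered the 9 relatives, without SLC43A2, in comparisons that used control, and all 10 members in those between constructs. The replicate number was itself the larger source of spread for most of the 10. All 10 differed between replicate numbers, as did 52.8% of all genes tested. Replicate 2 differed from replicate 1 for 5 of 10 (30.5% of all genes), replicate 3 from replicate 1 for 7 of 10 (41.6%) and replicate 3 from replicate 2 for 6 of 10 (27.1%). SLC43A1 was lower in replicate 3 than in replicate 1 (-0.73 on the log2 scale, adjusted p = 4.7e-07), SLC38A2 was higher by 0.71 (adjusted p = 1.5e-05), SLC7A6 by 0.46 (adjusted p = 4.7e-06) and SLC43A3 by 1.18 (adjusted p = 7.3e-05). SLC43A2 was lower (-0.50, adjusted p = 0.00074).

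Divided into sums of squares of log2 CPM (counts scaled to library size), SLC43A2 had 84.0% of its spread with the construct and 12.8% with the replicate number, a share that follows in part from how it was chosen. SLC3A2 had 62.6% and 26.4%, and SLC7A8 49.9% and 32.8%. For the other 7 the replicate number held the larger share, up to 94.1% for SLC43A1, 84.5% for SLC7A6 and 81.3% for SLC38A1. The medians over all genes tested were 27.9% for the construct and 42.3% for the replicate number.

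**Figure D4:**
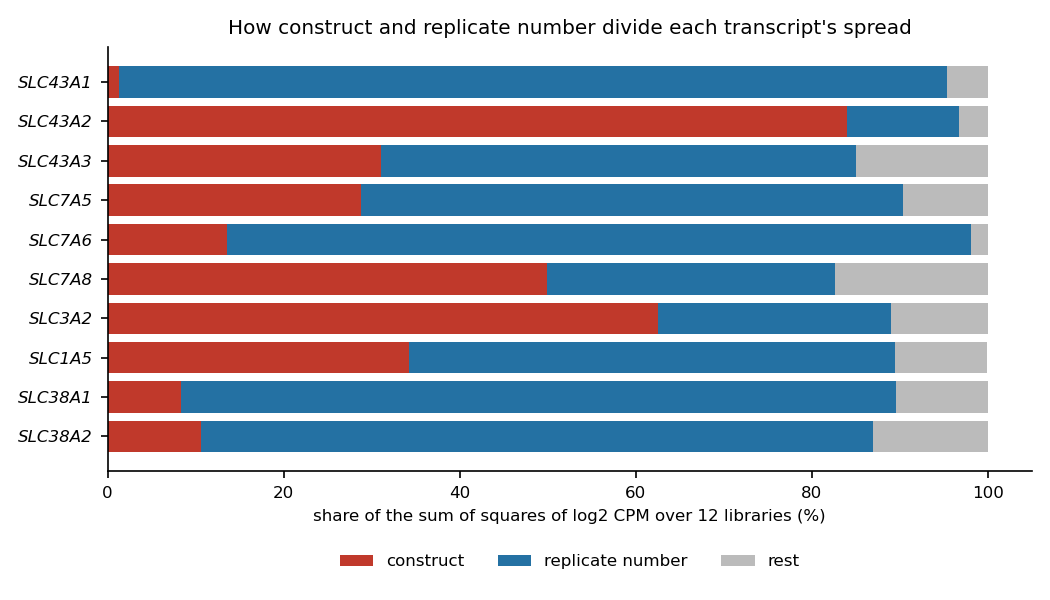
Share of the sum of squares of log2 CPM over the 12 libraries that goes with the construct, with the replicate number and with neither, in percent. SLC43A2 (84.0%) and SLC3A2 (62.6%) have the largest construct shares, and SLC43A1 (94.1%) the largest replicate share.

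Some of these genes lie side by side. SLC43A1 and SLC43A3 are 57.0 kb apart on chromosome 11 and on the same strand, and SLC43A3 fell with gag-pol while the intervals of SLC43A1 reached no farther than 0.24 from control on the log2 scale. RTN4RL2, between them on the opposite strand, was at 0.05 with gag-pol (adjusted p = 0.81). SLC38A1 and SLC38A2 are 88.2 kb apart on chromosome 12. Of the tested genes within 100 kb of SLC43A2, its nearest neighbours SCARF1 (0.51, adjusted p = 0.53), PITPNA (0.18, adjusted p = 0.2), RILP (0.02, adjusted p = 0.97) and PRPF8 (0.11, adjusted p = 0.37) did not pass with gag-pol, nor did any of these 4 with gag or NC. Farther off, at 82.6 kb, the noncoding MIR22HG was lower with gag-pol (-1.23 on the log2 scale, adjusted p = 0.0062) and with NC (-1.20, adjusted p = 0.0089), and was at 0.02 with gag (adjusted p = 0.99). The others that passed once were INPP5K and WDR81 with NC (-0.43 and -0.74) and TLCD2 with gag (-0.49).

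By Pearson correlation of log2 CPM centred within replicate number, over 12 libraries and 13510 genes, the 5 genes most like SLC43A2 were SLC44A2 (0.970), LRRC8D (0.938), RTN2 (0.937), XPO1 (0.918) and FLNA (0.911). The 12 points share their replicates and control libraries, so these values are a description. SLC44A2, a choline transporter-like protein, had a mean of 4840 normalized counts in control cells, 2274 for gag-pol, 1901 for gag and 2247 for NC. LRRC8D, a subunit of volume-regulated anion channels, went from 3026 to between 2342 and 2421, XPO1, the nuclear export receptor, from 10161 to between 7754 and 8546, and FLNA, an actin crosslinker, from 74953 to between 53870 and 57703. Among the relatives the value was highest for SLC7A8 (0.793, rank 103) and lowest for SLC1A5 (-0.479).

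Related pathways were read from lists of genes that did not include the 10 transporters. The lists were chosen with earlier results of these data known, so their counts beside the share of all genes are a description. Of 41 other amino acid transporters, 27 were tested, and none was higher and 2 lower with gag-pol, where 11.3% of all genes passed: the renal cystine transporter light chain SLC7A9 (-1.30, adjusted p = 0.0095) and the taurine transporter SLC6A6 (-0.28, adjusted p = 0.027). With NC, SLC6A6 was lower (-0.25, adjusted p = 0.044) and the glycine transporter SLC6A9 higher (0.32, adjusted p = 0.023), where 11.2% of all genes passed. None passed with gag, in edgeR or in DESeq2 (3 at an unadjusted p under 0.05). The count with gag-pol fell to 0 without control replicate 2 or gag-pol replicate 1, and to 1 without control replicate 1 or gag-pol replicate 2. With NC it fell to 0 without control replicate 2, NC replicate 1 or NC replicate 3, and was 4 without gag-pol replicate 3. The median of the 27 was 0.01 for gag-pol, -0.05 for gag and -0.08 for NC, beside 0.00 over all genes.

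Among genes by which mTORC1 senses amino acids, 33 of 34 listed were in the table and tested. With NC 2 were higher and 4 lower, where 6.04% of all genes were higher and 5.15% lower, and the lower ones included the Rag GTPase RRAGB (-0.64, adjusted p = 0.039), the leucine sensor SESN2 (-0.43, adjusted p = 0.033) and FLCN (-0.42, adjusted p = 0.005), a regulator of the Rag GTPases. None of the 33 passed with NC without control replicate 3, 2 did without NC replicate 1 or NC replicate 3, and 10 did without gag-pol replicate 3. With gag-pol none passed in edgeR (9 at an unadjusted p under 0.05) and 3 did in DESeq2, and with gag none passed in either (3 at an unadjusted p under 0.05). The median of the 33 was -0.07 for gag-pol, -0.04 for gag and -0.06 for NC.

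Of 23 genes of branched-chain amino acid breakdown, 1 was higher with gag-pol and 5 with NC, and none was lower. Of all genes, 5.48% were higher with gag-pol and 6.04% with NC. PCCB, a subunit of propionyl-CoA carboxylase, rose by 0.49 with gag-pol (adjusted p = 0.0014) and by 0.56 with NC (adjusted p = 0.00077). BCAT1, the cytosolic branched-chain aminotransferase, rose by 0.35 with NC (adjusted p = 0.0087), and ACAT1, a mitochondrial thiolase, by 0.33 (adjusted p = 0.022). With gag none passed in edgeR or DESeq2 (3 at an unadjusted p under 0.05). The NC count was 1 without control replicate 3 or without NC replicate 1, and 3 without control replicate 1, control replicate 2 or NC replicate 3. The median was 0.06 for gag-pol, -0.08 for gag and 0.13 for NC.

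ATF4 is the transcription factor made when amino acids run short, and SLC7A5, SLC3A2 and SLC38A2 are among its known targets. Of 27 other genes of this response, 15 were higher and none lower with NC, 7 higher and 2 lower with gag-pol, and 3 higher with gag. Of all genes, 6.04% were higher and 5.15% lower with NC, 5.48% higher and 5.83% lower with gag-pol, and 1.08% passed in either direction with gag. With NC the translation repressor EIF4EBP1 rose by 0.73 (adjusted p = 0.0012), PYCR1 of proline synthesis by 0.62 (adjusted p = 0.00085) and PSAT1 of serine synthesis by 0.56 (adjusted p = 0.01). With gag-pol EIF4EBP1 rose by 0.49 (adjusted p = 0.0083), whereas the stress regulator NUPR1 fell by 0.95 (adjusted p = 0.0014) and CTH, of cysteine synthesis, by 0.66 (adjusted p = 0.0096). The 3 that rose with gag were transcription factors: ATF3 by 1.02 (adjusted p = 0.00077), CEBPB by 0.48 (adjusted p = 0.013) and DDIT3 by 0.39 (adjusted p = 0.023). The median of the list was 0.30 with NC, 0.14 with gag-pol and 0.00 with gag, beside 0.00 over all genes. With NC the count was 7 without control replicate 3 and 8 without NC replicate 3. It was 9 without replicate 1 and 8 without replicate 2 in all groups. With gag-pol omitting control replicate 3 left 4, and omitting gag-pol replicate 3, or replicate 3 in all groups, left 3. With only gag-pol and control libraries 3 passed. With gag it was 1 without control replicate 1, control replicate 2 or gag replicate 1, and 5 without control replicate 3. SLC7A5 rose with NC as did most of this list, whereas SLC3A2 fell and SLC38A2 was at -0.31 (adjusted p = 0.071), all by edgeR.

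SLC43A3 handles nucleobases, so genes of nucleobase and nucleoside transport and salvage were read with it. Of 10 listed, 7 were tested. With gag-pol the nucleoside transporter SLC29A1 was higher (0.27, adjusted p = 0.039) and adenosine kinase, ADK, lower (-0.28, adjusted p = 0.032), and with NC adenine phosphoribosyltransferase, APRT, was higher (0.49, adjusted p = 0.027), where 11.3% and 11.2% of all genes passed. None passed with gag in edgeR or DESeq2, and none was at an unadjusted p under 0.05. The gag-pol count was 0 with only gag-pol and control libraries in the fit, and without control replicate 2, control replicate 3 or gag-pol replicate 1. The NC count was 0 without control replicate 3 or any 1 of the NC libraries, and 2 with only NC and control libraries.

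**Figure D5:**
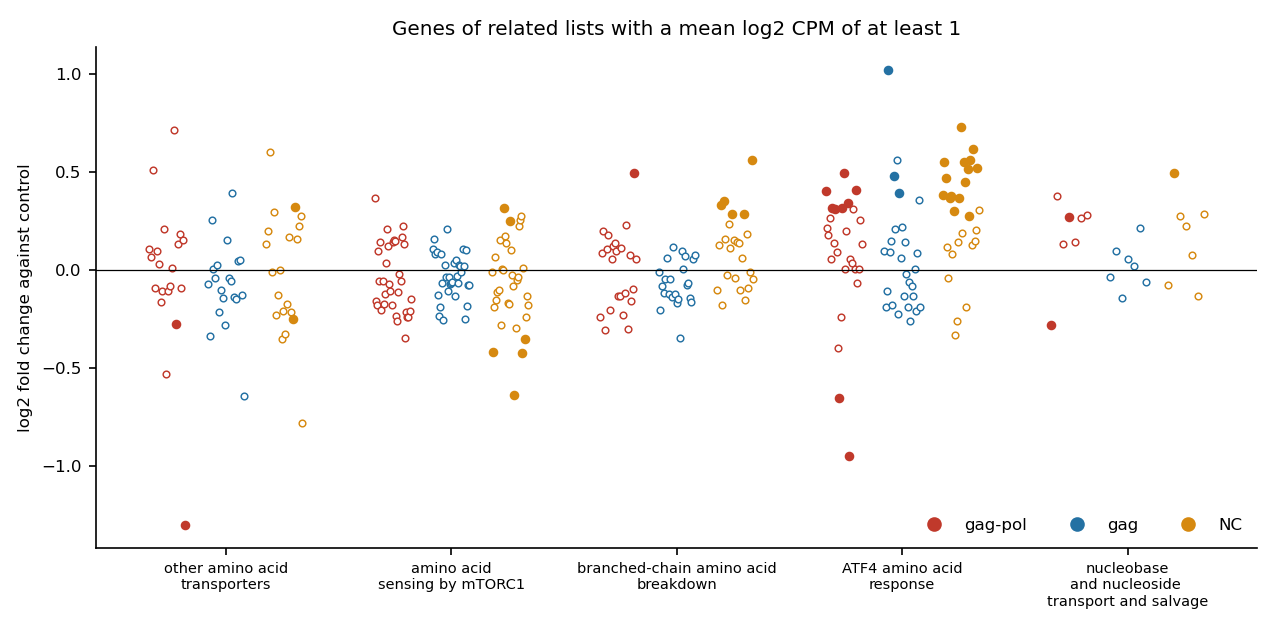
Log2 fold change against control of the genes of 5 related lists whose mean log2 CPM was at least 1, for gag-pol, gag and NC. Each point is a gene, filled where its adjusted p was under 0.05. The ATF4 list has 15 filled points with NC, all above 0, and 3 with gag.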

How the data were processed

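The authors sequenced mRNA libraries as paired-end reads, aligned it with STAR 2.7.3 to GRCh38.p13, sorted it with SAMtools 1.8 and counted reads per gene with featureCounts. The deposited values are whole-number counts per gene and library. The annotation release and the strand and multimapping settings are not given in the sources used here. The study's methods modelled harvest date and construct.

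The 12 libraries were grouped by transfected construct. Genes were kept by edgeR's filterByExpr (minimum count 10, minimum total 15), which left 17176 of 26485 genes. They were fitted with edgeR 4.0.16 in R 4.3.3 (TMM factors, robust quasi-likelihood test, construct and replicate number as terms, all 12 libraries, 6 residual degrees of freedom), with Benjamini-Hochberg adjustment over all genes tested and a threshold of 0.05. P-values rest on the spread left after construct and replicate number were fitted. The test draws each gene's spread toward that of the other genes tested. It therefore does not measure only how that gene's differences between constructs varied over 3 passages. A normalized count is a count scaled by the TMM library size to the mean library total of 37579187. The replicate numbers paired the libraries: in the 18 pairs with the same number, deviations from group means correlated at 0.138 to 0.539 across genes, against -0.498 to 0.072 in the 36 pairs with different numbers, as the 3 passages of the design imply. No library was a duplicate of another (chi-square per degree of freedom at least 32.3).

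The 10 members and all lists were chosen with earlier results of these data known. Text names the 10 members, PEG10, up to 3 called genes per list and control comparison by size of change among those with mean log2 CPM of at least 1, the 5 genes most like SLC43A2 and tested neighbours within 100 kb. Exon lengths came from GENCODE 44, where all 10 matched, and promoter windows from RefSeq. Alternatives were DESeq2 1.42.0, other scalings and filters, counts thinned to the smallest library, no robust estimation, PEG10 left out, only the compared groups, no replicate term, and each library or replicate number left out. The scripts were tested on simulated counts. Splicing and the human tissue data of the study were not analysed here.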

Additional observations from a re-analysis of the deposited data

Results flagged for a closer look

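Differences between constructs that passed a direct test are the values flagged here, since groups of 3 libraries were too small to screen for single outlying libraries. SLC3A2 differed between gag-pol and gag by -0.60 on the log2 scale, with gag-pol lower in 3 of 3 replicates. SLC7A5 differed between NC and gag by 0.42, with NC higher in 3 of 3. SLC7A6 differed between NC and gag by -0.22, with gag above control in 3 of 3 replicates and NC below control in 3 of 3. With a library or replicate number omitted, the SLC3A2, SLC7A5 and SLC7A6 calls held in 12, 14 and 5 of 15 fits.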

How the results depend on the processing

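Without the replicate block (the replicate number as a term), 0 members passed with gag-pol, NC or the mean of constructs against control, 0 for gag-pol against gag, 0 for NC against gag and 0 for the averages of gag-pol with NC and of gag with control, and at most 3 genes of the whole table passed in any of these. In these and the following counts, comparisons that used control cover the 9 relatives and leave out SLC43A2. Against control SLC43A2 was at -1.04, -1.33 and -1.27 for gag-pol, gag and NC, a description of values that chose it.

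DESeq2 gave 4 members with NC against control, with SLC1A5 and SLC38A2 added, and 2 for gag-pol against gag. Gag-pol against gag also gave 2 without a filter on low counts, with thinned counts and with only the compared libraries, and NC against gag gave 1 without a filter and 1 with only the compared libraries. Leaving out a library or a replicate number gave 1 to 4 members for gag-pol against control, 0 to 3 for NC against control, 1 to 4 for the mean of constructs, 0 to 2 for gag-pol against gag, 1 to 3 for NC against gag, 0 to 1 for NC against gag-pol, 2 to 4 for the averages of gag-pol with NC and of gag with control, and 5 to 10 between replicate numbers. NC against control gave 0 without control replicate 3 and 0 without NC replicate 3. The cause was not tested.

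Against control SLC43A2 was between -1.41 and -0.93 in 9 other settings and the 15 fits with a library or replicate number omitted. The same libraries chose the gene, so this range is a description and no check of the difference. SLC43A1, near 0, changed sign: with gag-pol to -0.034 without control replicate 2 (range -0.034 to 0.13), with gag to 0.047 without replicate 3 (range -0.14 to 0.047), and with NC to -0.039 without control replicate 2 (range -0.039 to 0.15). SLC43A2 for NC against gag changed sign to -0.054 without replicate 3 (range -0.054 to 0.21).

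With Spearman correlation, SLC44A2 ranked 3 and RTN2 150 among the genes most like SLC43A2, and without centring RTN2 ranked 157 and FLNA 247. SLC43A3, the member with the fewest counts, was at -1.06 to -0.99 with gag-pol in 9 other settings, counts thinned to the smallest library among them.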
